A study of Mus musculus with 3 samples.

Results

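The genes described here encode the collagen chains, the laminin chains, the nidogens Nid1 and Nid2, the heparan sulphate proteoglycans perlecan (Hspg2) and agrin (Agrn), fibronectin (Fn1), Sparc and Sparcl1. They were chosen by gene symbol alone, from probe sets that the platform annotation gives a single symbol, which found 61 genes on 63 probe sets among 19938 named genes on 35557 probe sets. Of the 61 genes, 22 encode basement membrane components, 3 are fibronectin and the SPARC family, and 36 are other collagens.

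The RNA came from embryonic kidneys of CD-1 mice at E15.5 (Theiler stage 23) that carried the Tie2-GFP transgene, in which the promoter of Tek, a receptor gene of endothelial cells, drives green fluorescent protein. Kidneys were dissociated with trypsin, GFP-positive cells were sorted, and every sample pooled 4 to 5 kidneys for its own array, 3 in all. The 3 arrays form a single group without an untreated, GFP-negative or adult group, so that levels were read against a fixed signal and not against another cell population. The study describes its samples as biologically independent, while the labels name no litter or animal, so a p-value speaks only to the spread among these 3 arrays.

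A basement membrane is a thin sheet of matrix beneath endothelium and epithelium, built from a laminin network and a type IV collagen network that nidogens and perlecan hold together. Laminins are trimers of an alpha, a beta and a gamma chain, and type IV collagen is a trimer of alpha chains. In the developing glomerulus the first membrane holds the type IV chains Col4a1 and Col4a2 with the laminin chains Lama1, Lama4 and Lamb1, and as the capillary loops mature Col4a3, Col4a4 and Col4a5 with Lama5 and Lamb2 take their place. Fibrillar collagens, by contrast, are chiefly products of stromal cells.

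Promoter sequence is shown for 4 chains, an embryonic and a mature one of each network, since both chains of each pair are described below. RefSeq windows of GRCm38.p6 reach from 250 bases before to 50 bases after an annotated first base, and capitals mark matches on either strand to 4 motifs, with overlapping matches merged. The GC box was searched as GGGCGG, the CCAAT box as CCAAT, the TATA box as TATAAA and the core bound by ETS factors as TTCCTG.
Col4a2, chr8:11312555-11312854, plus strand: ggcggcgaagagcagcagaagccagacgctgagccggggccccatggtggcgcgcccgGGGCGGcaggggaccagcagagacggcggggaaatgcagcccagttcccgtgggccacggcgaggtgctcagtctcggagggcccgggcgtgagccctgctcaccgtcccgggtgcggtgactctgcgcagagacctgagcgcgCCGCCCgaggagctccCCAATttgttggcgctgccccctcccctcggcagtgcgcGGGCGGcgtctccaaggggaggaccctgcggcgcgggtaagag
Col4a4, chr1:82586800-82587099, minus strand: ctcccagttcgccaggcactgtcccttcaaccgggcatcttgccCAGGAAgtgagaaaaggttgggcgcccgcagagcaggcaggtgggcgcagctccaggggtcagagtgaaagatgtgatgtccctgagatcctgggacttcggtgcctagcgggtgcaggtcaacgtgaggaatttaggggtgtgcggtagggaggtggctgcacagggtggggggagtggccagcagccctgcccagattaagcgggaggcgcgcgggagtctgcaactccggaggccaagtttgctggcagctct
Lamb1, chr12:31265043-31265342, plus strand: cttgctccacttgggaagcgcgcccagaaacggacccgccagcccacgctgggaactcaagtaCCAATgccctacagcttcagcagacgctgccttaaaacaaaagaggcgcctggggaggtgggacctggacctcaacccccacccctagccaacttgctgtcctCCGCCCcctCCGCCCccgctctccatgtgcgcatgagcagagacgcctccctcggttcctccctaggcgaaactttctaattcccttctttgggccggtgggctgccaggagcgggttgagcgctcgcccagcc
Lamb2, chr9:108479612-108479911, plus strand: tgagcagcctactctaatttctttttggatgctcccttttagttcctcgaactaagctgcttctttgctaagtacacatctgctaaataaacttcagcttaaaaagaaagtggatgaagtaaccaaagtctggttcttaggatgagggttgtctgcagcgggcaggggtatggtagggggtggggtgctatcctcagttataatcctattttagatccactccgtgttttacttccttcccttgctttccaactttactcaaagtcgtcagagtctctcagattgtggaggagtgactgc
The Col4a2 window was 73.7% G and C and held 3 GC boxes and 1 CCAAT box. It overlaps the window of Col4a1 by 78 bases, because both genes start on opposite strands with annotated first bases 21 bases apart. The Col4a4 window held a single ETS core and the Lamb1 window 2 GC boxes and 1 CCAAT box, while none of the 4 motifs lay in the Lamb2 window. Of all 32851 windows, 35.7% held a GC box, 37.4% a CCAAT box, 13.6% a TATA box and 30.6% an ETS core. These are matches of letters and no measure of binding.

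All levels are deposited log2 signals, and each gene was tested against the low-signal filter of the study, 100 on the raw scale or 6.64 on the log2 scale. The study applied this filter to its own raw values and asked for 100 in 3 samples. Here the mean of 3 deposited values was set against it, and the scales may differ. A gene was called above or below that level by limma at an adjusted p under 0.05. Because probe sets bind with different strength, the level of a gene was set against this signal and never against that of another gene. Among the 3 arrays, arrays 1 and 2 correlated at r = 0.976 over all probe sets and array 3 at 0.923 with array 1 and 0.927 with array 2. The 14 endothelial markers had medians of 10.11, 10.15 and 8.79 in arrays 1, 2 and 3, and every one of them was over the filter level in every array, so the markers of the labelled cell type were present in each. The 12 macrophage markers had medians of 6.70, 8.09 and 8.84, and 1178 olfactory and vomeronasal receptor genes, used as a low background although some may be expressed in kidney, had medians of 4.68, 4.71 and 5.08, with 21 of them called above the level.

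Many of these probe sets had the same value in several arrays to the last digit. Arrays 1 and 2 were equal in 51 of the 63 probe sets (81.0%), against 50.6% of all probe sets of the table, and all 3 arrays were equal in 18 (28.6%), against 19.7%. A probe set equal in all 3 arrays has no spread of its own, and for one equal only in arrays 1 and 2 the spread rests on array 3. How they arose is not known from these sources. When values were simulated by median polish, a summarization method, over 3 separately drawn arrays, 33.6% of probe sets had ties. In the deposited values at least 2 arrays were equal in 55.9% of all probe sets, and whether they were made so is not given. Equal values may not be separate measurements, which also bears on the correlation of arrays 1 and 2 and on each n of 3. Each call is therefore given a second time with the spread pooled over the 15690 probe sets whose 3 values all differed, an SD of 0.70 log2.

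Across the 61 genes, 34 lay above the level and 11 below it, where 41.6% of all named genes lay above and 41.6% below. With the pooled spread 15 of the 61 lay above and none below, with 29.8% of all named genes above and 25.8% below. Of the 34 genes, 13 were among these 15. By role the calls divided unevenly, with 10 of 22 basement membrane genes, 3 of 3 of fibronectin and the SPARC family and 21 of 36 other collagens above by the first test, and 10, 3 and 2 above with the pooled spread. The first share of the basement membrane genes was thus near that of all genes. Of the 36 other collagens, 35 had equal values in arrays 1 and 2. With the pooled spread the same SD holds for every probe set, so those calls follow the mean alone. The part of ties in the calls of the other collagens was not tested.

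**Figure D1:**
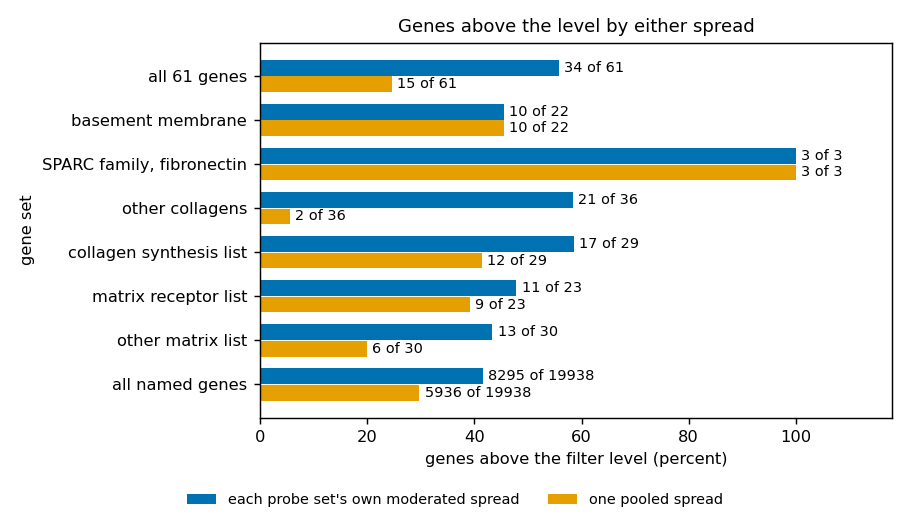
Percent of genes above the filter level (horizontal axis) for the 61 genes, their roles, the lists of related genes and all named genes (rows), with 1 bar for the limma test and 1 for the pooled spread and the counts beside the bars. The counts are equal for the basement membrane genes (10 of 22), while for the other collagens they are 21 and 2 of 36.

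Of the 6 type IV collagen chains, the embryonic pair lay above the level and the others were called in neither direction. Col4a1 had 8.27, 8.09 and 7.39 log2 in arrays 1, 2 and 3, a mean of 7.92 ± 0.46 (SD, n = 3; limma, adjusted p = 0.0346). Col4a2, its partner in the trimer, had 7.92, 7.91 and 7.55, a mean of 7.79 ± 0.21 (adjusted p = 0.0092). Every array of both genes was above the level, and both calls held with the pooled spread.

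The chains of the mature glomerular membrane lay close to the level. Col4a3 had 6.61, 6.61 and 6.74 log2, and Col4a5 had 6.66, 6.66 and 6.84. Col4a4 had 6.74, 6.74 and 7.22, a mean of 6.90 ± 0.28 (n = 3; adjusted p = 0.245). Col4a6, which pairs with Col4a5 in the membrane of Bowman's capsule, had 6.20, 6.20 and 6.89. None of these 4 genes was called in either direction, so their means could not be told from the level. Leaving out array 3 left each with equal values in the other arrays, and the test then put Col4a4 (6.74) and Col4a5 (6.66) above the level and Col4a3 (6.61) and Col4a6 (6.20) below it.

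Among the laminin alpha chains, Lama4, the chain of vascular basement membranes, stood far above the level. It had 10.22, 9.98 and 8.82 log2, a mean of 9.67 ± 0.75 (n = 3; adjusted p = 0.0161). Lama1, the chain of early epithelial membranes, had 6.47 in each array and Lama2, known from muscle, had 6.14, 6.14 and 6.20. Both were called below the level by the first test and by neither direction with the pooled spread. Lama5, the alpha chain of the mature glomerular membrane, and Lama3, a chain of skin, each had 6.64 in each array and were called in neither direction.

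Lamb1, the early beta chain, had 9.02, 9.02 and 8.68 log2, a mean of 8.90 ± 0.19 (n = 3; adjusted p = 0.0021). Lamb2, the beta chain that follows it in the glomerulus, had 7.16, 7.16 and 7.09, a mean of 7.14 ± 0.04 (adjusted p = 0.00193). Lamb1 was also above with the pooled spread, and Lamb2 was not (adjusted p = 0.307). Lamb3, a partner of Lama3 in skin, had 6.29 in each array and was below by the first test only.

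Lamc1, the gamma chain shared by most laminins, had 10.39, 9.82 and 8.65 log2, a mean of 9.62 ± 0.88 (n = 3; adjusted p = 0.0231), and was above by both tests. Lamc3 had 7.16, 7.16 and 7.33 and was above by the first test (adjusted p = 0.00738) but not with the pooled spread. One alpha, one beta and one gamma chain, Lama4, Lamb1 and Lamc1, therefore passed both tests.

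By isoform, 4 of the 5 embryonic chains lay above the level by both tests (Col4a1, Col4a2, Lama4 and Lamb1) and Lama1 did not. Of the 5 mature chains, Lamb2 alone was above by the first test and 0 of 5 were with the pooled spread. Among all named genes 41.6% were above by the first test and 29.8% with the pooled spread. All 5 mature chains had equal values in arrays 1 and 2, so without array 3 they had no spread of their own. The test then put 4 of 5 above, of which Col4a5 at 6.66 and Lama5 at 6.64 hardly exceeded the level. Such calls show on which side of the level a tied value fell, and no dependence on array 3 is read from them. The embryonic chains above stayed 4 of 5. Without array 1, or without array 2, 1 of 5 was above in either set (Lamb1 and Lamb2). These counts set each chain against the level, and no test compared the isoforms with each other.

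The nidogens, which link both networks, had a wide spread between arrays. Nid1 had 8.51, 8.51 and 7.34 log2, a mean of 8.12 ± 0.67 (n = 3), and Nid2 had 9.28, 8.65 and 7.41, a mean of 8.45 ± 0.95. Each value lay above the level, but with this spread neither gene passed (adjusted p = 0.0531 for Nid1 and 0.0698 for Nid2). Both passed with the pooled spread.

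Of the proteoglycans, Hspg2 had 8.83, 8.57 and 7.88 log2, a mean of 8.43 ± 0.49 (n = 3; adjusted p = 0.0198). Agrn, a main heparan sulphate proteoglycan of the glomerular membrane, had 7.81, 7.75 and 7.35, a mean of 7.64 ± 0.25 (adjusted p = 0.0171). Both were above by both tests. Col15a1 and Col18a1 encode collagens that carry glycosaminoglycan chains and lie in the basement membrane zone. Col15a1 had 8.45, 8.42 and 7.97 (adjusted p = 0.00748) and passed both tests. Col18a1, the source of endostatin, had 7.21, 7.21 and 6.80, a mean of 7.07 ± 0.24 (adjusted p = 0.0768), and passed neither.

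Sparc, a collagen-binding glycoprotein, had 13.12, 12.80 and 12.00 log2, a mean of 12.64 ± 0.58 (n = 3; adjusted p = 0.00262). Its relative Sparcl1 had 11.58, 11.56 and 10.43, a mean of 11.19 ± 0.66 (adjusted p = 0.00572). Fn1, an early matrix protein that integrins bind, had 8.57, 8.54 and 7.75, a mean of 8.29 ± 0.46 (adjusted p = 0.0209). All 3 genes were above the level in every array and by both tests.

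**Figure D2:**
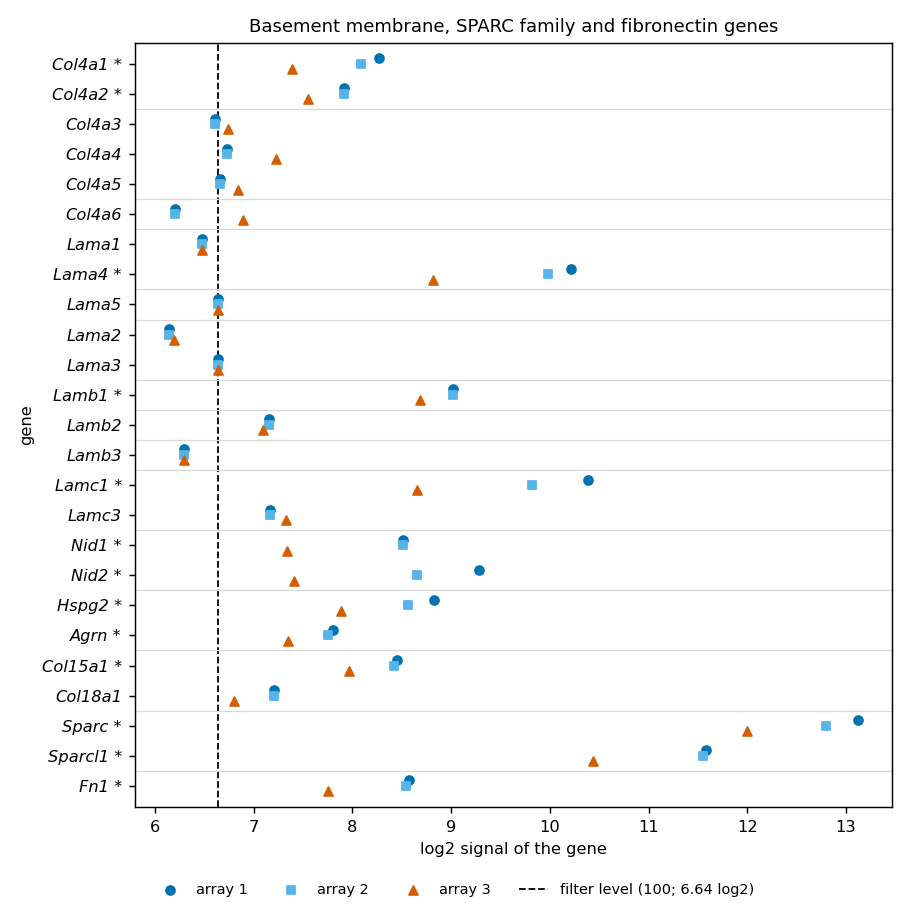
Deposited log2 signal (horizontal axis) of each basement membrane gene, fibronectin and the SPARC family (rows) in arrays 1, 2 and 3, with the filter level of 6.64 as a dashed line. An asterisk marks a gene above the level with the pooled spread, and Sparc at 12.00 to 13.12 lies farthest to the right.

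The other collagens sat in a narrow band around the level, with a median of 6.91 over the 36 genes against 6.67 over all named genes and 7.18 over the basement membrane genes. Of the 11 fibrillar chains, which form the cross-banded fibrils of stroma and cartilage, 8 lay above by the first test and 1 with the pooled spread. The shares of all named genes above were 41.6% and 29.8%. Col1a1, the main chain of type I collagen, had 7.58 log2 in each array and was the 1 that passed both (adjusted p = 0.0373 with the pooled spread). Its partner Col1a2 had 7.32, 7.32 and 7.56. Col2a1, of cartilage, had 7.41 in each array and Col3a1, of vessel walls and loose stroma, 6.92 in each. All 4 of these chains lay above the level in every array, and the repeated values of Col1a1, Col2a1 and Col3a1 leave their spread unknown.

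The remaining fibrillar chains above the level by the first test were Col5a2 at 6.71 log2 and Col5a3 at 6.79 in each array, Col11a2 at 7.43, 7.43 and 7.47, and Col27a1 at 7.13, 7.13 and 7.24. Col5a1, Col11a1 and Col24a1 were called in neither direction. Of 13 measured stroma and mural cell markers, 3 lay above and 8 below the level by the first test, and 1 above and 3 below with the pooled spread. By the first test 41.6% of all named genes lay above and 41.6% below, and with the pooled spread 29.8% and 25.8%. The stroma and mural markers had medians of 6.13, 6.15 and 6.17 log2 in arrays 1, 2 and 3. Pdgfrb, of pericytes and mesangium, had 5.87 in each array, and Pdgfra, of stroma, had 6.22, 6.22 and 6.78. Foxd1, of the stromal progenitors, had 7.46, 7.68 and 8.48 and was above by both tests. Meis1, of stroma and mesangium, had 7.04, 7.04 and 6.82 and was above by the first test only. The part of such cells in the fibrillar collagen signal was not tested.

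FACIT collagens attach to the surface of fibrils. Of 9 genes, 6 lay above by the first test, 2 below (Col12a1 and Col19a1) and 1 in neither direction (Col9a1). By that test 41.6% of all named genes lay above and 41.6% below. With the pooled spread 11.1% of the FACIT genes lay above, against 29.8% of all named genes. Col9a2 had 7.46, 7.46 and 7.80 log2 and was the 1 FACIT gene that also passed with the pooled spread (adjusted p = 0.0378). Col9a3 had 7.42, 7.42 and 7.54, Col14a1 had 7.19 in each array, Col16a1 had 6.71, 6.71 and 6.78, Col20a1 had 7.01, 7.01 and 7.17, and Col22a1 had 7.09, 7.09 and 7.26. Col16a1 was the marginal call of this class (adjusted p = 0.0488).

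Of the 7 genes of beaded filament collagens, 2 lay above by the first test, 4 below (Col6a1, Col6a3, Col6a4 and Col28a1) and Col6a5 in neither direction. All named genes gave 41.6% above and 41.6% below. With the pooled spread 0 of the 7 lay above, against 29.8% of all named genes. Col6a2 had 7.31, 7.31 and 7.90 log2. Col6a1 and Col6a3, the chains that Col6a2 joins in the type VI trimer, were thus on the other side of the level by the first test, though none of the 3 was called with the pooled spread. Col6a6 counted as above through 1 of its 2 probe sets, at 7.20, while the other, at 5.82, was below. The probe sets of Col6a5 differed less, at 6.05 (below) and 6.66 (neither).

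Of the network-forming short chains, Col8a1 and Col8a2 lay below the level and Col10a1 in neither direction, with 6.88, 6.88 and 7.63 log2. Col7a1, of the anchoring fibrils of skin, had 7.07, 7.07 and 7.36. Of the 4 transmembrane collagens, Col13a1 had 7.18 in each array, Col23a1 had 7.19, 7.19 and 7.41, and Col25a1 had 6.67 in each, all above by the first test, and Col17a1 in neither direction. Col26a1 had 7.34 in each array. None of these passed with the pooled spread. The 15 other collagens not above the level had means between 6.13 and 7.13 log2.

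**Figure D3:**
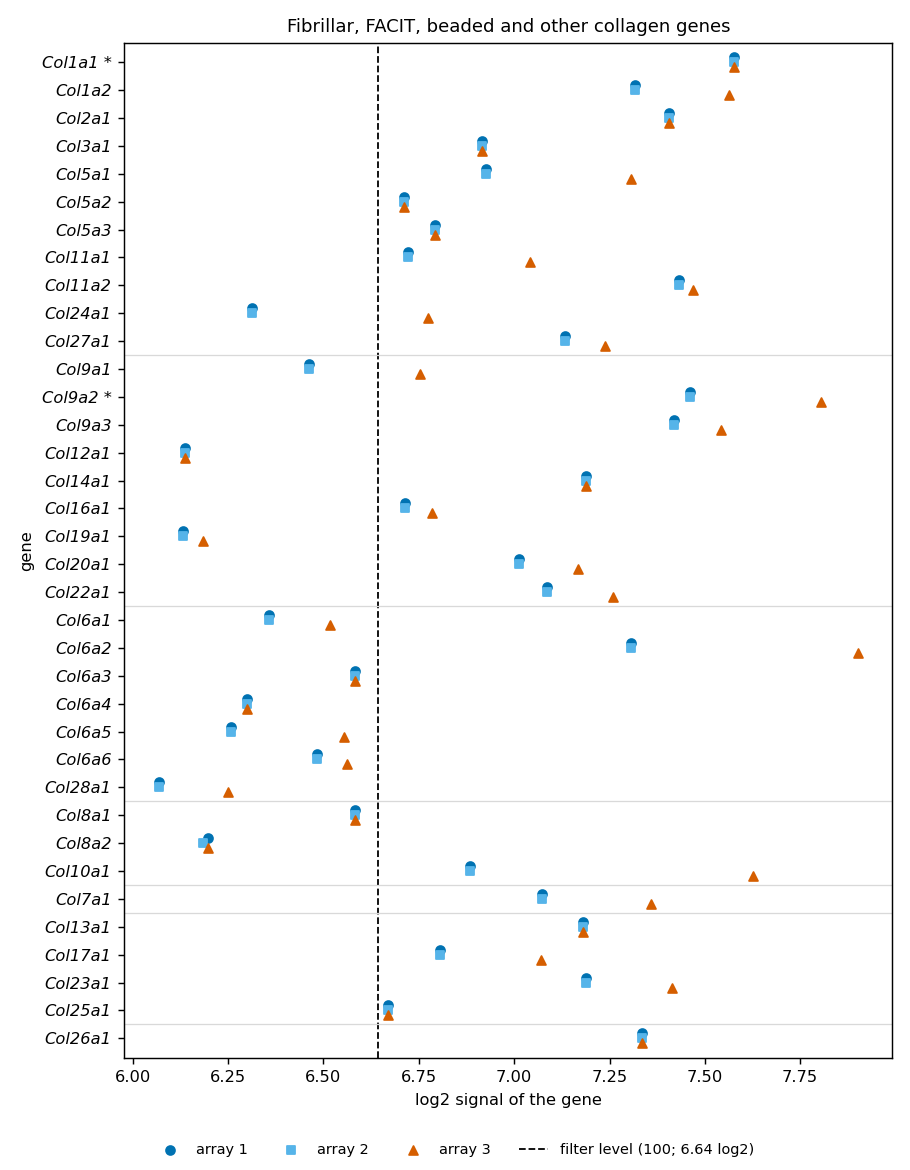
Deposited log2 signal (horizontal axis) of each of the 36 other collagen genes (rows, grouped by class) in arrays 1, 2 and 3, with the filter level of 6.64 as a dashed line. Asterisks mark Col1a1 and Col9a2, the 2 genes above the level with the pooled spread, and arrays 1 and 2 coincide for nearly every gene.

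Array 3 differed from the others over the whole table. Its values were spread less, with an SD over probe sets of 1.84 log2 against 2.08 in array 1 and 2.06 in array 2. A gene was counted as lower there when it was under both other arrays and more than 0.25 log2 under their mean, which held for 20.1% of all named genes, and as higher when it was over both and more than 0.25 over their mean, which held for 23.1%. Of the 61 genes, 14 were lower and 12 higher. The lower ones were 11 of 22 basement membrane genes and all 3 of fibronectin and the SPARC family, and none of the 36 other collagens. The higher ones were Col4a4 and Col4a6 and 10 of the 36 other collagens. The median difference of array 3 from the mean of arrays 1 and 2 was -0.20 log2 for the basement membrane genes, -0.96 for fibronectin and the SPARC family and 0.09 for the other collagens.

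This split by role ran together with signal level. Of all named genes whose mean was more than 1 log2 over the filter level, 51.7% were lower in array 3, and of those within 1 log2 of it 12.2% were lower and 20.7% higher. All 12 of the 61 genes in the upper range were lower, 9 of them basement membrane genes. Of the 13 basement membrane genes near the level, 2 were lower and 2 higher. All 36 other collagens were near the level, with 0 lower and 10 (27.8%) higher. Of the receptor genes, most of which were far under the level, 638 of 1178 were higher in array 3. No test separated role from signal level.

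Among the isoforms, 4 of the 5 embryonic chains and 0 of the 5 mature chains were lower in array 3, with Col4a4 higher. These 4 embryonic chains had means more than 1 log2 over the level, where 51.7% of all named genes were lower. All 5 mature chains were within 1 log2 of it, where 12.2% were lower. No test separated isoform from signal level. Of the 14 lower genes, 13 were among the 15 above the level with the pooled spread. All 11 genes with 3 different values were among the lower ones, and none of these 11 was an other collagen. Endothelial markers moved in the same direction, with 13 of 14 lower in array 3 and a median difference of -0.95 log2. Each of the 14 had a mean more than 1 log2 over the level. Macrophage markers moved in the other direction, with 9 of 12 higher and a median difference of 1.24. Of all named genes 20.1% were lower and 23.1% higher. Of the stroma and mural markers, 0 of 13 were lower and 4 were higher. The part of these cell types in the differences of array 3 was not tested, and in such bulk samples fewer cells of a type and less RNA per cell cannot be told apart.

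**Figure D4:**
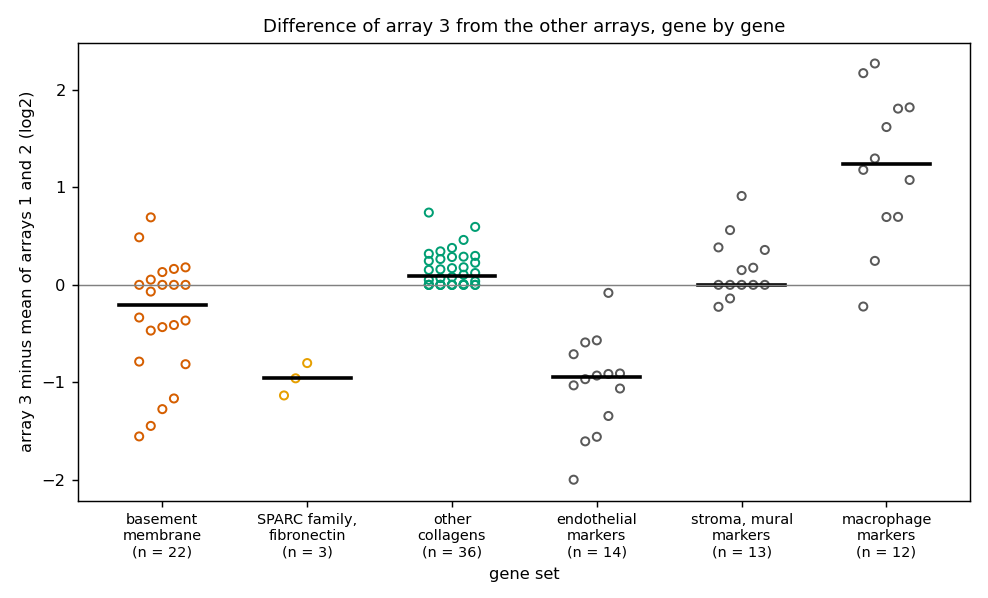
Difference of array 3 from the mean of arrays 1 and 2 (log2) for each gene (circles), by role and for 3 marker lists, with medians as bars. The medians are -0.20 for basement membrane genes, 0.09 for other collagens, -0.95 for endothelial markers and 1.24 for macrophage markers.

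Leaving out an array moved the basement membrane calls. Without array 3, 13 of 22 lay above, 8 of them among the first 10. Lamc1 and Hspg2 were lost, and Nid1, Col18a1, Col4a4, Col4a5 and Lama5 were gained. Each gained gene had equal values in arrays 1 and 2, so no spread of its own was left without array 3. Without array 1, or without array 2, 2 of 22 remained above, Lamb1 and Lamb2. Of the other collagens, 25 of 36 lay above without array 3 and 11 without either of the others. In 35 of these 36 genes arrays 1 and 2 were equal. No share of all named genes is given for these counts.

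Genes that fold, export and cross-link collagen were measured for 29 of 31 listed. By the first test 17 lay above the level and 8 below, and with the pooled spread 12 lay above and 5 below. All named genes gave 41.6% above and 41.6% below by the first test, and 29.8% and 25.8% with the pooled spread. Serpinh1, the collagen chaperone of the endoplasmic reticulum, had 8.68, 8.68 and 8.56 log2, and P4hb, a subunit of prolyl 4-hydroxylase, had 9.70, 9.72 and 8.48. Its catalytic partners P4ha1 and P4ha2 had 7.62, 7.62 and 7.58 and 6.54, 6.54 and 6.25. The first 3 of these genes lay above the level in every array and P4ha2 below it in every array, without a call.

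Of 23 receptors of collagen, laminin and fibronectin, 11 lay above and 7 below by the first test, and 9 above and 3 below with the pooled spread. The shares above were 47.8% and 39.1%, where those of all named genes were 41.6% and 29.8%. Itgb1, the beta subunit that most of them share, had 11.46, 10.92 and 10.34 log2. The alpha subunits of collagen receptors, Itga1 and Itga2, had 7.08, 7.08 and 7.06 and 9.82, 9.32 and 7.98. Itga3, of a laminin receptor, had 6.83, 6.73 and 6.42 and was called in neither direction. Part of each list was lower in array 3, 9 of 23 receptors and 9 of 29 collagen synthesis genes, where 20.1% of all named genes were. For all named genes more than 1 log2 over the level that share was 51.7%, and no test separated the lists from signal level.

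Of 30 measured of 32 other matrix genes, 13 lay above and 16 below by the first test, and 6 above and 5 below with the pooled spread. For these and the marker lists below, all named genes gave 41.6% above and 41.6% below by the first test. With the pooled spread they gave 29.8% and 25.8%. The share of other matrix genes above was thus near that of all genes by the first test and under it with the pooled spread. Tinagl1, a basement membrane glycoprotein, had 8.08, 8.08 and 7.79 log2 and lay above the level. Its relative Tinag, of tubular membranes, had 4.44, 4.44 and 5.21 and lay below. Npnt, a ligand of kidney integrins, had 6.92 in each array and was above, and Smoc1 had 5.84 in each and was below. Neither of these tied genes was called with the pooled spread, while Tinagl1 and Tinag kept their calls. Of the podocyte markers 3 of 6 measured lay above and 2 below by the first test. Those above were Podxl at 8.25, 7.94 and 7.94 log2, Wt1 at 6.71 in each array and Clic5 at 6.82 in each. Of the nephron and ureteric markers 3 of 12 lay above and 7 below, and of the erythroid markers 2 of 7 and 4. With the pooled spread the counts above and below were 1 and 0 for podocyte, 0 and 2 for nephron and ureteric and 0 and 3 for erythroid markers. The podocyte marker above by both tests was Podxl.

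Promoter windows were held for 44 of the 61 genes, 49 windows in all. A GC box was found in 8 of the 10 windows of genes above the level with the pooled spread and in 22 of the 39 windows of the other genes, where 35.7% of all windows held one. The 10 windows are not separate genes or boxes. Agrn gave 2 of them, each with a GC box, and Col4a1 and Col4a2 share a GC box where their windows overlap. Not every gene above the level had a window. A CCAAT box was found in 4 of 10 and 11 of 39, a TATA box in 0 of 10 and 5 of 39, and an ETS core in 2 of 10 and 10 of 39. Col4a5 and Col4a6 also start on opposite strands, 1343 bases apart, and unlike Col4a1 and Col4a2 neither was above the level.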

How the data were processed

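RNA of GFP-positive cells from 3 pools was amplified once with NuGEN WT-Pico reagents, and hybridized to Mouse Gene 1.0 ST arrays of Affymetrix. The authors deposited 1 table of log2 values for 35557 probe sets. Affymetrix Expression Console is named, with no version, by the submitters' processing notes. For the summarization of its values, a method was not given in the sources used here. RMA in GeneSpring is stated for the study's own comparisons and not for this table. Scan dates and batches are not known, and the number of arrays limits the precision.

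No further normalization was applied to the deposited log2 values. The annotation gave 1 symbol to 21789 probe sets and several to 1621, and 12147 were unnamed here. Symbols were updated through a RefSeq table of GRCm38.p6 for 21698. A gene's value was the mean of its probe sets. A gene was above if any probe set was and below only if all were.

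Each probe set mean was tested against 6.64 (100 raw) with limma 3.58.1 in R 4.3.3 (intercept-only fit, eBayes, one-sided in each direction, Benjamini-Hochberg over all probe sets, threshold 0.05). Tested on simulated data, this test made too many calls for probe sets at the level, and a z-test with the pooled SD of 0.70 log2 is given beside it. Summaries used Python 3.11.15 and pandas 2.3.3. With 1 group, none of the study's tests between cell types was possible.

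Every basement membrane, fibronectin and SPARC family gene was named. Of the other collagens each gene above the level was given by array and the rest by name, and of the collagen synthesis, receptor, other matrix and stroma lists the first 4 measured genes. Genes whose probe sets disagreed on the call were named, as were the podocyte markers above the level. The genes and lists were chosen with earlier results of these data known. Alternatives were other levels (64 and 200, and 100 in all 3 arrays), centring, quantile normalization, a trended robust eBayes, adjustment over named probe sets, 1 mean per gene, the pooled spread and leaving out each array.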

Additional observations from a re-analysis of the deposited data

How the results depend on the processing

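No paired analysis was possible because the 3 arrays form a single group. Counts moved most with the level. Among these alternatives the share of all named genes is given only for the pooled spread, so the counts show only how calls moved with a setting. The level of 64 raw (6 log2) lies under the median of all named genes, 6.67. At 64 raw, 58 of 61 genes lay above and 0 below, with 21 of 22 basement membrane genes and 34 of 36 other collagens above. At 200 raw, 3 lay above and 45 below, with 1 and 0 above. With the pooled spread 15 lay above and 0 below, and 2 other collagens above. A level set at the 95th percentile of the receptor genes (6.41 log2), chosen after seeing the data, gave 7 below and 18 basement membrane genes above. Requiring 100 in all 3 arrays gave 16 basement membrane genes above. Leaving out 1 array at a time gave 14 to 41 genes above and 7 to 17 below, 2 to 13 basement membrane genes above and 11 to 25 other collagens above, where leaving out array 1 or array 2 gave the low counts and array 3 the high ones. Fewer arrays are themselves a smaller test. Centring, quantile normalization, adjustment over named probe sets, 1 mean per gene and the trended robust fit left every one of these counts within 1.5 times the first.

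Among the named genes, Col4a3 turned to below the level without array 3, where its remaining values were equal (6.61). At 64 raw, Lama1 (6.47), Lama2 (6.16), Lama3 (6.64) and Lamb3 (6.29) turned to above. The mean of Col6a6 over its probe sets (6.51) is under the first level and over this one, and the gene was called above at both. At 200 raw these were called below: Col4a3 (6.65), Col4a4 (6.90), Col4a5 (6.72), Lama5 (6.64), Lamb2 (7.14), Lamc3 (7.22), Col18a1 (7.07), Col1a1 (7.58), Col1a2 (7.40), Col2a1 (7.41), Col3a1 (6.92), Col5a2 (6.71), Col5a3 (6.79), Col11a2 (7.45), Col27a1 (7.17), Col9a3 (7.46), Col14a1 (7.19), Col16a1 (6.74), Col20a1 (7.06), Col22a1 (7.14), Col7a1 (7.17), Col13a1 (7.18), Col23a1 (7.26), Col25a1 (6.67) and Col26a1 (7.34). Also called below at 200 raw were Col4a6 (6.43) and Lama3 (6.64), with no call at the first level, and Col6a6 (6.51), called above there. Lama1, Lama2 and Lamb3 were below at both levels. Agrn (7.64), Col9a2 (7.58) and Col6a2 (7.50) had means under 200 raw and no call. These levels change what is asked and not the signal. With the pooled spread 24 of 46 named genes lost their call, and Nid1 and Nid2 gained it. Col16a1 lost it under centring, quantile normalization and the trended robust fit, Col5a2 and Col25a1 under centring and quantile normalization, Col5a3 under quantile normalization and Col6a2 under the trended robust fit. With 1 mean per gene Col6a6 was called below (6.51), Lama3 below and Nid1 above. Nid1 was also called above with adjustment over named probe sets, centring and quantile normalization, and Nid2 with centring and quantile normalization. Col18a1 was called above with quantile normalization, and Lama3 below with the trended robust fit. Requiring 100 in all 3 arrays put Nid1, Nid2, Col18a1, Col4a4, Col4a5 and Lama5 above and Lama3 below.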
